A study of Gallus gallus with 23 samples.

Results

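Amino acid uptake and supply in embryonic chicken growth cartilage was described through 6 genes, SLC7A5, SLC3A2, SLC38A2, SLC38A3, ASNS and ATF4, chosen by name. Of these 6 genes, 5 had a probe set annotated with that symbol alone, among 11528 genes annotated in this way over 20804 probe sets on the array. SLC3A2 had no such annotation and was not analysed here. ATF4 had a pair of probe sets, and each gene is represented by its probe set of highest mean over the 23 arrays. All 5 genes were among the 11004 probe sets past a filter that kept probe sets varying over the arrays. The cartilage came from the distal femur and from the proximal tibiotarsus (TBT), the avian shin bone, which the sample records call tibia. Cartilage taken at embryonic day (E) 15 came from embryos that had been kept immobilised over the preceding days with decamethonium bromide (DMB), a drug that holds skeletal muscle in rigid paralysis, or from controls given vehicle. Vehicle controls were also taken at E12 and E13, and all embryos were chickens (Gallus gallus) with no genetic alteration given. There were 3 arrays in each of the 8 groups of age, treatment and element except E15 control femur, which had 2 arrays because the authors left out 1 array. Each array held RNA pooled from several embryos, so the spread between arrays is a spread between pools.

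Cells take up large neutral amino acids such as leucine through system L, in which the SLC7A5 protein (LAT1) carries the substrate and the SLC3A2 protein (4F2hc, CD98) brings it to the cell surface. System L exchanges one amino acid for another, and glutamine, which is brought in with sodium by SLC38A2 (SNAT2) and SLC38A3 (SNAT3), is a common exchange substrate. Asparagine synthetase, the product of ASNS, makes asparagine from aspartate and glutamine. In mammalian cells, amino acid shortage activates the kinase GCN2, which phosphorylates the translation factor eIF2. Translation of the transcription factor ATF4 then rises, and ATF4 induces ASNS, SLC7A5, SLC38A2 and serine synthesis genes. ATF4 is therefore controlled largely in translation, which RNA levels do not record. Leucine taken up by system L is also a signal to the kinase complex mTORC1, and growing chondrocytes use amino acids to build collagen and aggrecan.

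Array medians lay between 5.78 and 5.85 on the log2 scale. Over the probe sets past the filter, Pearson r was between 0.962 and 0.983 for arrays of the same group and between 0.923 and 0.98 for arrays of different groups. The mean level of 10 cartilage markers was between 11.74 and 12.29 in every array. In controls of each element it was higher in every E15 array than in those of E12 and E13. The mean level of 12 skeletal muscle markers was 4.35 to 5.36 in immobilised femur and 6.29 to 6.79 in E15 control femur. In TBT it was 4.28 to 5.1 when immobilised and 6.11 to 7.17 in E15 controls, and at E12 and E13 it was 7.06 to 7.94. In each element, 9 of the 11 muscle markers past the filter fell with immobilisation. In such bulk samples, fewer cells of a type and less RNA per cell cannot be told apart. Levels are array signals, so they are compared between groups for a gene and not between genes.

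**Figure D1:**
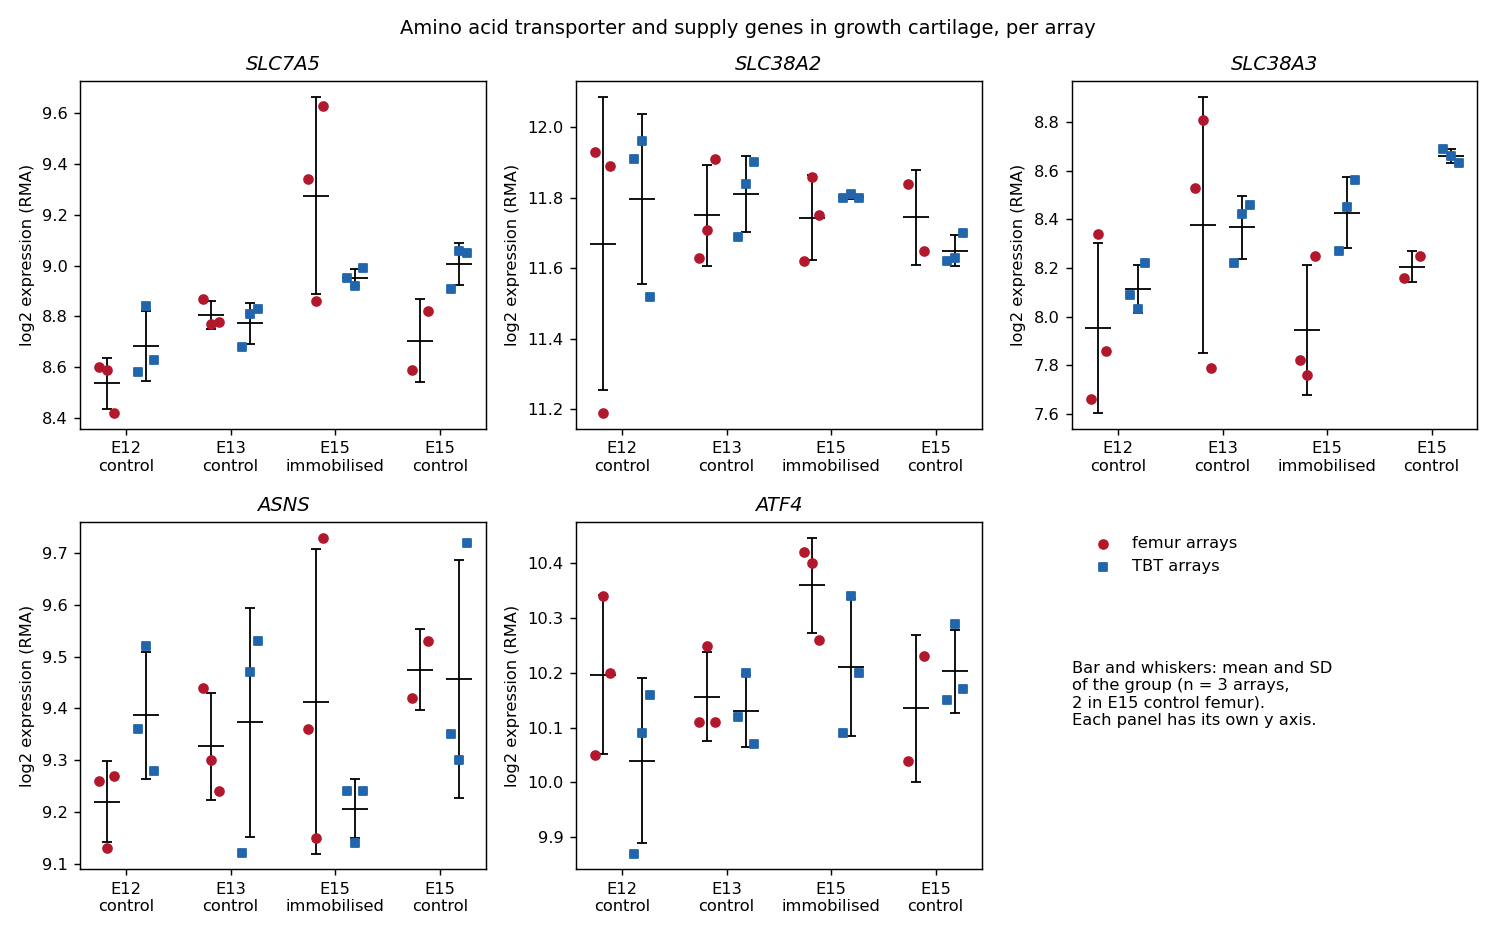
Log2 expression (y axis, each panel with its own scale) of the 5 genes in every array, by age and treatment (x axis), with femur as circles, TBT as squares, and bars for the mean and SD of each group (n = 3 arrays, 2 in E15 control femur). The 3 immobilised femur arrays of SLC7A5 lay at 9.34, 8.86 and 9.63, above both E15 control femur arrays.

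SLC7A5 (probe set 15417979) was the only one of the 5 genes that limma called in any of 13 comparisons, and it was higher in immobilised than in control femur at E15. Its levels were 9.34, 8.86 and 9.63 in immobilised femur, against 8.59 and 8.82 in E15 control femur. The groups did not overlap, but the immobilised arrays were widely spread, and replicate 2 lay only just above the higher control. The log2 difference was 0.57 (SE 0.15, 1.49-fold, limma adjusted p = 0.0393, higher in 3 of 3 arrays). Among all probe sets tested, 4.39% were called in this comparison, 1.89% as higher, and 18.6% had non-overlapping groups in the direction of higher in immobilised femur. All 5 arrays of the comparison carried the same array code, so their array code did not differ between the groups. Leaving out either control array ended the call (0.46 and adjusted p = 0.31 without replicate 1, 0.69 and adjusted p = 0.109 without replicate 2). So did leaving out immobilised replicate 1 (0.54, adjusted p = 0.105) or replicate 3 (0.4, adjusted p = 0.105). Without immobilised femur replicate 2 the difference was 0.78 (adjusted p = 0.00118). The call also ended with no filter (adjusted p = 0.0773), with replicate number as a block (0.55, adjusted p = 0.0552) and in a fit of only the groups compared (adjusted p = 0.34). SAM, the permutation method named by the study, was rerun here with the 10 permutations that these 5 arrays allow. It did not call SLC7A5 (0.527% of probe sets called).

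The muscle markers above moved with this comparison, and the 7 osteoblast and periosteum markers had a mean level of 10.85 to 11.01 in immobilised femur and 10.69 to 10.91 in control femur. These 7 include RUNX2, which the study describes as regulating chondrocyte maturation as well as osteoblasts, so they do not mark osteoblasts alone. The mean level of 6 leukocyte and osteoclast markers was 7.51 to 7.63 in immobilised femur and 7.42 to 7.48 in control femur. That of 7 endothelial markers was 7.91 to 8.06 and 7.72 to 7.94 in turn. The part of any of these markers in the SLC7A5 result was not tested.

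In TBT, the SLC7A5 difference was near 0. Levels were 8.95, 8.92 and 8.99 in immobilised TBT, against 8.91, 9.06 and 9.05 in E15 control TBT, and the groups overlapped. The log2 difference was -0.05 (95% interval -0.34 to 0.23, adjusted p = 0.894). The muscle markers were lower in immobilised TBT as well. The difference between the effects in femur and TBT was 0.63 (SE 0.2, 95% interval 0.2 to 1.05, unadjusted p = 0.00651 by limma), which did not pass adjustment over all probe sets (adjusted p = 0.332, where 0.182% of probe sets were called). Without immobilised femur replicate 2 that difference was 0.83 (adjusted p = 0.0315). It lay between 0.45 and 0.83 over the arrays left out in turn, and no other alternative fit called it. Over both elements, immobilised minus control was 0.26 (SE 0.1, adjusted p = 0.112, where 11.6% of probe sets were called). Without immobilised femur replicate 2 it was 0.36 (adjusted p = 0.00455). The range over the arrays left out was 0.17 to 0.36, and again no other alternative fit called it.

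Before E15, SLC7A5 lay between 8.42 and 8.87. At E12 it was 8.6, 8.59 and 8.42 in femur, against 8.58, 8.84 and 8.63 in TBT, and at E13 it was 8.87, 8.77 and 8.78 in femur, against 8.68, 8.81 and 8.83 in TBT. Femur and TBT overlapped at both ages. In femur the 3 arrays of E13 all lay above those of E12. The share of all probe sets that did so was not computed, so this is a description of these arrays only. Over both elements, E13 minus E12 was 0.18 (SE 0.1, limma adjusted p = 0.752), and limma called no probe set there. The stage differences that follow set E15 against E12 and E13 together, so they do not show this step. In control TBT the 3 arrays of E15 all lay above the 6 arrays of E12 and E13, with a log2 difference of 0.28 (SE 0.12, adjusted p = 0.146), whereas in control femur it was 0.03 (SE 0.13, adjusted p = 0.903). Neither passed the limma test, and 6.16% of all probe sets had non-overlapping groups in that direction in TBT. SAM called SLC7A5 in TBT, as it did 14.3% of all probe sets. Both E15 control femur arrays lay below the 3 of E15 control TBT (-0.3, SE 0.15, adjusted p = 0.362, where 16.1% of probe sets did not overlap in that direction). In immobilised embryos SLC7A5 averaged 9.28 ± 0.39 in femur and 8.95 ± 0.04 in TBT (SD, n = 3 each, difference 0.32, SE 0.13, adjusted p = 0.276). The highest group mean was thus that of immobilised femur, followed by E15 control TBT at 9.01 ± 0.08 and immobilised TBT, and these 3 groups overlapped in that order. E13 femur came next and did not overlap immobilised TBT, and each group below it overlapped its neighbour. At E15 all femur arrays had one array code and the TBT arrays had others. With the code as a block the differences between elements were -0.51 in controls (adjusted p = 0.29) and 0.12 in immobilised embryos (adjusted p = 0.889). These block values carry over to E15 a code effect estimated from the E12 groups, the only ones in which that code occurred beside others.

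**Figure D2:**
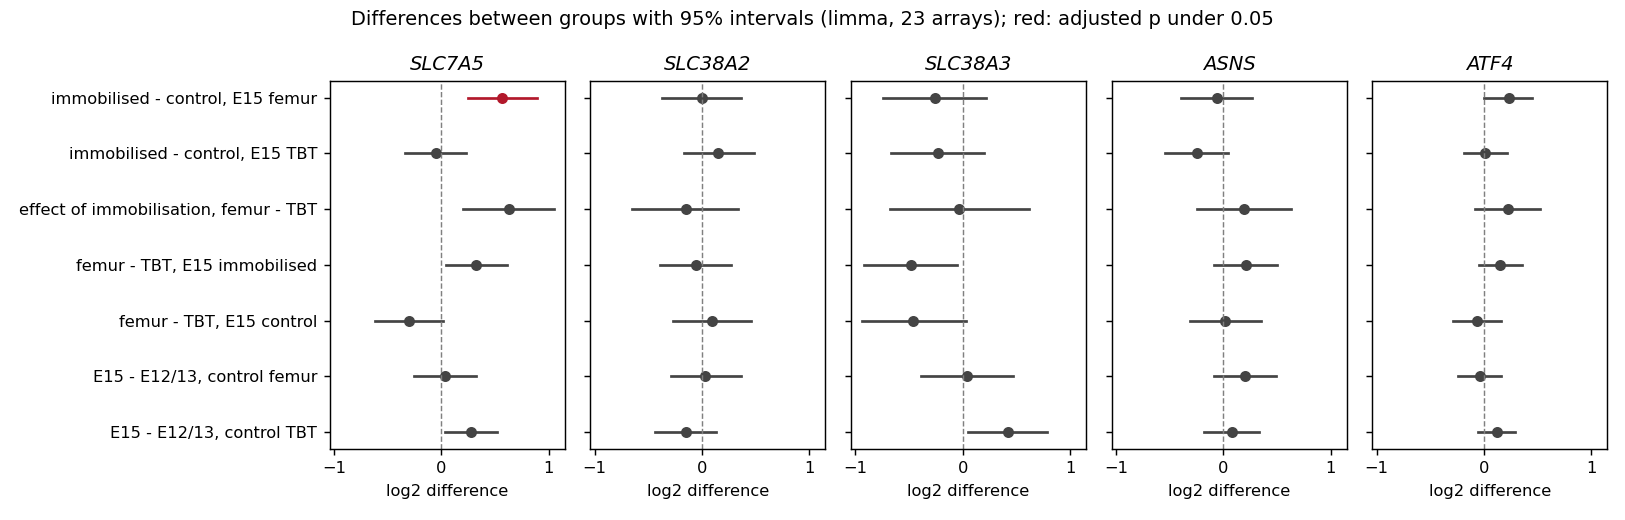
Log2 differences (x axis) with 95% intervals for the 5 genes in 7 comparisons (y axis, first-named group minus the second), from limma over 23 arrays, with adjusted p under 0.05 in red. The only red point is SLC7A5 in immobilised minus control femur, at 0.57.

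SLC38A2 (probe set 15398629), a sodium-coupled carrier of small neutral amino acids, was not called in any comparison. Its group means ran between 11.65 in E15 control TBT and 11.81 in E13 control TBT, and every neighbouring pair in that order overlapped. Its lowest arrays were E12 femur replicate 2 at 11.19 and E12 TBT replicate 3 at 11.52, and both lay apart from the other arrays of their groups. In femur at E15, levels were 11.62, 11.86 and 11.75 in immobilised cartilage, against 11.84 and 11.65 in controls, with a log2 difference whose 95% interval was -0.37 to 0.36. In TBT they were 11.8, 11.81 and 11.8 when immobilised, against 11.62, 11.63 and 11.7 in controls. These TBT groups did not overlap, as for 13.1% of all probe sets in that direction, but the difference of 0.15 did not pass the test (SE 0.16, adjusted p = 0.658).

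SLC38A3 (probe set 15554404), a glutamine carrier coupled to sodium and protons, varied most among arrays of the same group. In femur it was 7.66, 8.34 and 7.86 at E12, 8.53, 8.81 and 7.79 at E13, and 8.16 and 8.25 in E15 controls. In TBT it was 8.09, 8.03 and 8.22 at E12, 8.22, 8.42 and 8.46 at E13, and 8.69, 8.66 and 8.63 in E15 controls. The TBT arrays of E15 all lay above those of E12 and E13, with a log2 difference of 0.42 (SE 0.18, limma adjusted p = 0.15), as 6.16% of all probe sets did in that direction, while the femur arrays of the different ages overlapped (0.04, SE 0.2, adjusted p = 0.924). SAM called SLC38A3 in TBT, as it did 14.3% of all probe sets. In a fit of only the groups compared, limma called it too (adjusted p = 0.022), among 669 of 11004 probe sets. The study had picked SLC38A3 from a comparison that used these same E15 control TBT arrays, so this stage difference is not independent of that choice. E15 control TBT had the highest group mean of SLC38A3, 8.66 ± 0.03 (SD, n = 3), and did not overlap the next group, and every other neighbouring pair in the order down to immobilised femur at 7.94 ± 0.27 (SD, n = 3) overlapped. The change with stage differed between femur and TBT by -0.38 (95% interval -0.95 to 0.19, adjusted p = 0.625). Over both elements, E13 minus E12 was 0.34 (SE 0.14, unadjusted p = 0.0318, limma adjusted p = 0.618).

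Immobilised cartilage was not called for SLC38A3 in either element. In TBT its arrays were 8.27, 8.45 and 8.56, against 8.69, 8.66 and 8.63 in controls, with no overlap (-0.23, SE 0.2, adjusted p = 0.596, where 10.9% of probe sets did not overlap in that direction). In femur they were 7.82, 7.76 and 8.25, against 8.16 and 8.25 in controls (-0.26, SE 0.23, adjusted p = 0.587). Neither difference passed the test. The study had picked SLC38A3 from its E15 control comparison of femur with TBT, so that difference, -0.46, is given as a description only. Those control arrays are also the reference of both immobilised minus control differences, so these are not independent of that choice either. In immobilised embryos, whose arrays took no part in that choice, SLC38A3 was also lower in all 3 femur than in all 3 TBT arrays. The difference was -0.48 (SE 0.2, 95% interval -0.92 to -0.05, unadjusted p = 0.0303 by limma), and it did not pass adjustment over all probe sets (adjusted p = 0.284). In this comparison 2.04% of probe sets were called and 9.66% did not overlap in that direction. The adjusted p for SLC38A3 reached 0.612 over the alternatives. All 3 femur arrays carried one array code and the TBT arrays carried others, as in the E15 controls. Element and array code therefore cannot be told apart within E15.

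ASNS (probe set 15457433) had group means between 9.21 in immobilised TBT and 9.47 in E15 control femur, with every neighbouring pair in that order overlapping. In TBT its levels were 9.24, 9.14 and 9.24 in immobilised cartilage, against 9.35, 9.3 and 9.72 in controls. The groups did not overlap, as for 10.9% of all probe sets in that direction, but the test was not passed (-0.25, SE 0.14, adjusted p = 0.352), and without control replicate 3 the difference was -0.12. In femur the levels were 9.36, 9.15 and 9.73 in immobilised cartilage, against 9.42 and 9.53 in controls, and the immobilised arrays lay on both sides of the controls (-0.06, SE 0.16, adjusted p = 0.884). Stage differences in ASNS were 0.2 in femur (SE 0.14, adjusted p = 0.361) and 0.08 in TBT (SE 0.12, adjusted p = 0.745) for E15 minus E12 and E13.

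ATF4 (probe set 15400141) had the smallest spread over the 23 arrays of the 5 genes, with an SD of 0.13 on the log2 scale. In femur at E15 it was 10.42, 10.4 and 10.26 in immobilised cartilage, against 10.04 and 10.23 in controls. The groups did not overlap, as for 18.6% of all probe sets in that direction, and immobilised replicate 3 and control replicate 2 were close. The log2 difference of 0.23 (SE 0.11, unadjusted p = 0.049 by limma) did not pass adjustment (adjusted p = 0.26), and the other ATF4 probe set gave 0.14 (SE 0.18, adjusted p = 0.749). In TBT ATF4 was 10.09, 10.34 and 10.2 in immobilised cartilage, against 10.15, 10.29 and 10.17 in controls (0.01, 95% interval -0.19 to 0.21, adjusted p = 0.983). The 2 ATF4 probe sets correlated across the 23 arrays with r = 0.5. Group means of ATF4 ran between 10.04 in E12 TBT and 10.36 in immobilised femur, and every neighbouring pair in that order overlapped.

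In every comparison but E13 minus E12, the 5 genes lay on both sides of 0. In E13 minus E12 over both elements all 5 lay above 0, between 0.02 and 0.34 with a median of 0.05, where 48.2% of all probe sets lay above 0 and limma called none. In immobilised minus control femur, 2 lay above 0 and 3 below, with a median log2 difference of 0, which was also the median over all probe sets tested. In immobilised minus control TBT, 2 lay above 0 and 3 below, with a median of -0.05 against 0.01 over all probe sets, and none of the 5 was called where 5.74% of all probe sets were called. In E15 minus E12 and E13, none was called in femur (12.2% of all probe sets) or in TBT (9.46%). By limma at an unadjusted p under 0.05 there were 0 of the 5 in femur (28.2% of all probe sets) and 2 in TBT (24.9%), and SAM called 0 in femur (7.22% of all probe sets) and 2 in TBT (14.3%), SLC7A5 and SLC38A3. Between femur and TBT controls limma called 0 of the 5 genes at E12, E13 and E15. There were also 0 of 5 at an unadjusted p under 0.05, against 6.39%, 4.91% and 14.9% of all probe sets at these ages in turn, and 0 called by SAM, which called 0.0636%, 0% and 0.0364% of all probe sets. SAM as rerun here had 20 permutations at E12 and at E13 and 10 at E15, fewer than the study states. The study's own SAM list for E15 held SLC38A3, so the 0 by SAM here differs from that list. The 2 are not at the same cutoff. The rerun at E15 called 4 probe sets at an estimated false discovery rate of 0, stricter than the rate the study used. The methods also name another probe annotation. At E12 and E13 limma called no probe set on the array between the elements, and at E15 it called 0.209%.

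The wider supply network was described through 9 lists of transporters, synthesis enzymes, response factors, eIF2 factors and tRNA synthetases, which held 75 further genes past the filter. In immobilised minus control femur, 2 of the 75 rose and none fell, with a median of 0.07 (1.89% of all probe sets rose and 2.5% fell). PHGDH, the first enzyme of serine synthesis, was 7.43, 7.38 and 7.91 in immobilised femur, against 6.57 and 6.63 in controls (0.97, SE 0.26, limma adjusted p = 0.0402). ALDH1L2, a mitochondrial folate enzyme downstream of serine use, was 9.99, 10.09 and 10.23 in immobilised femur, against 9.58 and 9.77 in controls (0.43, SE 0.1, adjusted p = 0.0159). Neither pair of groups overlapped, as for 18.6% of all probe sets in that direction. The PHGDH call was lost without any 1 of the 5 arrays (adjusted p up to 0.206), and that of ALDH1L2 without E15 control femur replicate 1 (0.33, adjusted p = 0.206).

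In immobilised minus control TBT, 2 of the 75 rose and 1 fell, with a median of -0.04 (2.88% of all probe sets rose and 2.86% fell). SLC7A2, a carrier of cationic amino acids such as arginine, was 7.77, 7.71 and 8.02 in immobilised TBT, against 7.18, 7.24 and 7.29 in controls (0.6, SE 0.11, adjusted p = 0.00489), a call lost in a fit of only the groups compared (adjusted p = 0.0535). PSAT1, which acts after PHGDH in serine synthesis, was 6.71, 6.83 and 6.98 in immobilised TBT, against 6.35, 6.32 and 6.12 in controls (0.58, SE 0.16, adjusted p = 0.0452), a call lost without any 1 of the 6 arrays (adjusted p up to 0.195). ATF3, a stress-induced transcription factor downstream of ATF4, fell to 6.19, 6.14 and 5.98 in immobilised TBT, against 6.95, 7.46 and 7.07 in controls (-1.06, SE 0.18, adjusted p = 0.00238). ATF3 thus moved down while ATF4 itself differed by 0.01. In femur, SLC7A2, PSAT1 and ATF3 gave 0.34, 0.4 and -0.42, none of them called. Besides muscle markers, the mean level of 6 erythroid markers was lower in TBT, at 8.31 to 8.38 when immobilised and 8.67 to 9.11 in controls, as was that of the 7 osteoblast and periosteum markers, at 10.4 to 10.48 when immobilised and 10.61 to 10.88 in controls. Their part in these results was not tested.

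Over both elements, 4 of the 75 rose with immobilisation and 1 fell. PHGDH rose by 0.74 (SE 0.17, adjusted p = 0.0105), SLC7A2 by 0.47 (SE 0.09, adjusted p = 0.00181) and PSAT1 by 0.49 (SE 0.12, adjusted p = 0.0152), and ATF3 gave -0.74 (SE 0.14, adjusted p = 0.00199). The PSAT1 call was lost without either E15 control femur array (adjusted p up to 0.0569). CHAC1, a glutathione-degrading enzyme and target of ATF4, rose by 0.64 (SE 0.19, adjusted p = 0.0372), and this call was lost without any 1 of the E15 arrays other than immobilised femur replicate 2 and control TBT replicate 3 (adjusted p up to 0.118). CHAC1 was 6.39, 5.28 and 6.27 in immobilised femur, against 4.95 and 5.02 in controls. In TBT it was 5.07, 5.13 and 5.24 when immobilised, against 4.58, 4.68 and 5.32 in controls. Among all arrays, only immobilised femur replicates 1 and 3 and E13 control TBT replicate 1 (5.95) lay above the array medians of 5.78 to 5.85. CHAC1 signals were thus low. The calls of PHGDH, SLC7A2 and ATF3 over both elements passed in every alternative limma fit run on them. Background over all probe sets was 5.89% higher and 5.72% lower. No gene of the lists was called for a difference between the femur and TBT effects of immobilisation.

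**Figure D3:**
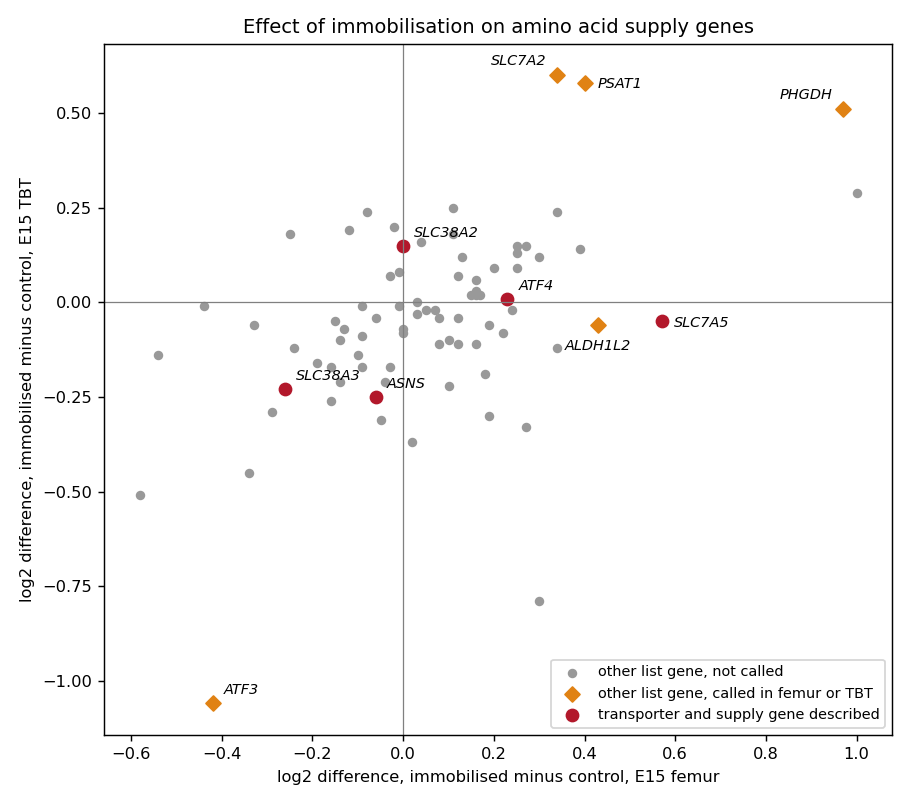
Log2 difference of immobilised minus control at E15 in femur (x axis) and TBT (y axis) for the 80 list genes past the filter, with the 5 transporter and supply genes as red circles and other genes called in either element as orange diamonds. PHGDH lay above 0 in both elements, SLC7A5 lay at 0.57 in femur and -0.05 in TBT, and ATF3 lay below 0 in both.

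Between immobilised femur and immobilised TBT, ALDH1L2 was the only list gene called, at 9.99, 10.09 and 10.23 in femur, against 9.5, 9.48 and 9.55 in TBT (0.59, SE 0.09, adjusted p = 0.000875). With the array code as a block the adjusted p was 0.0737, a value that carries over to E15 a code effect estimated at E12.

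With stage, the list genes went in both directions. Of the 75 genes, 2 rose and 6 fell in femur from E12 and E13 to E15 (5.26% of all probe sets rose and 6.97% fell), and 3 rose and 6 fell in TBT (3.74% rose and 5.72% fell). Over both elements 9 rose and 9 fell, where 10.8% of all probe sets rose and 12.6% fell. Markers of cartilage and of other cells moved with stage. The mean level of the 10 cartilage markers was 12.15 to 12.16 in E15 control femur and 11.88 to 12.14 in femur before. In TBT it was 12.09 to 12.29 in E15 controls and 11.74 to 12.03 before. All 11 skeletal muscle markers past the filter were lower at E15 over both elements (median -0.95), and 6 of them were called. The mean level of 6 leukocyte and osteoclast markers was 7.42 to 7.88 in E15 controls and 6.46 to 7.19 at E12 and E13, and that of the erythroid markers was 8.64 to 9.11 in E15 controls and 7.9 to 8.42 before. Of 7 endothelial markers, 3 rose and 1 fell (median 0.33), and of the 7 osteoblast and periosteum markers 3 rose and 1 fell (median 0.19). Their part in the stage results was not tested.

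Among transporters, SLC6A9, a glycine carrier, was 8.34 and 8.15 in E15 control femur, against 8.51 to 9.07 over the 6 femur arrays of E12 and E13 (-0.55, SE 0.11, adjusted p = 0.00561), a call lost without E15 replicate 2. SLC16A10, a carrier of aromatic amino acids, was 8.79 and 8.8, against 7.94 to 8.56 (0.56, SE 0.16, adjusted p = 0.0314), lost without either E15 array or without replicate 2 of E12 or of E13. SLC38A4, a relative of SLC38A2, was 5.43, 5.59 and 6.42 in E15 control TBT, against 4.68 to 5.15 over the 6 TBT arrays of E12 and E13 (0.89, SE 0.23, adjusted p = 0.0208). Without the high replicate 3 that call was lost. Only that array lay above the array medians of 5.78 to 5.85, so SLC38A4 signals were low. None of the other list genes for transporters was called with stage in a single element.

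Among 17 synthesis enzyme genes, 4 fell and 1 rose with stage in TBT (5.72% of all probe sets fell and 3.74% rose). In femur 1 fell and 1 rose (6.97% of all probe sets fell and 5.26% rose). PHGDH was 6.22, 6.16 and 6.46 in E15 control TBT, against 6.69 to 7.27 (-0.75, SE 0.2, adjusted p = 0.0252), lost without E13 replicate 3 or any E15 array. PSAT1 was 6.35, 6.32 and 6.12, against 6.51 to 6.95 (-0.54, SE 0.14, adjusted p = 0.0215), lost without E15 replicate 3. SHMT1, which turns serine into glycine, fell in TBT (-0.48, SE 0.13, adjusted p = 0.0273) and in femur (-0.53, SE 0.15, adjusted p = 0.0325). Its TBT call was lost without E12 replicate 3, E13 replicate 1 or 2, or E15 replicate 2 or 3, and its femur call without E13 replicate 2 or either E15 array. CTH, an enzyme of cysteine synthesis, fell in TBT (-0.39, SE 0.09, adjusted p = 0.0143), lost without E15 replicate 2. ALDH1L2 rose in femur (0.27, SE 0.09, adjusted p = 0.046), lost without replicate 1 or 2 of any of the 3 ages. BCAT1, which transaminates branched-chain amino acids, rose in TBT (0.35, SE 0.1, adjusted p = 0.0362) and is named after its value was seen, to complete the count. The E15 control TBT arrays are shared by this comparison and by that of immobilised with control TBT, so the values of those comparisons are not independent of each other.

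The sensor and translation machinery showed small stage differences. EIF2AK4, which encodes the amino acid sensor GCN2, rose in TBT (0.19, SE 0.05, adjusted p = 0.0394), lost without any E15 array or without replicate 1 or 2 of E12 or of E13. EIF2B2, a subunit of the factor that reloads eIF2, fell in femur (-0.35, SE 0.08, adjusted p = 0.0125), lost without either E15 array, and in TBT (-0.28, SE 0.07, adjusted p = 0.0189), lost without E15 replicate 2. The aminoacyl-tRNA synthetase list held 16 genes, among them the accessory genes AIMP2 and EEF1E1. None rose in either element. In femur 3 fell, FARSB (-0.27), RARS (-0.3) and the scaffold subunit AIMP2 (-0.57), where 6.97% of all probe sets fell. FARSB also fell in TBT (-0.22), where 5.72% of all probe sets fell. All 3 femur calls were lost without either E15 array, and that of RARS also without E12 replicate 1 or 2 or E13 replicate 2 or 3. The FARSB call in TBT was lost without E12 replicate 1 or 2, E13 replicate 3 or E15 replicate 2 or 3.

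Over both elements, alternatives were run on at most 4 stage calls per list, so ALDH18A1, BCAT1, MTHFD1L and ALDH1L2, which all rose, were not checked. Of those run, SLC16A10, ASS1 and PPP1R15B, which rose, and ATF2 and RARS, which fell, lost the call in some fit. The other 9 passed the test in every alternative limma fit run on them. SLC38A4 and SHMT1 did not pass the stricter filter, a standard deviation above 20, and so were not tested in that fit. Both had low signals. SLC38A4 lay above the array medians only in E15 control TBT replicate 3, and SHMT1 lay between 5.28 and 6.33. SLC38A4 (0.75) and EIF2AK4 (0.18) rose, and SLC6A9 (-0.41), PHGDH (-0.65), SHMT1 (-0.51), CTH (-0.29), EIF2B2 (-0.32), FARSB (-0.24) and AIMP2 (-0.39) fell. Their SEs lay between 0.04 and 0.18 and the adjusted p of each was at most 0.00657.

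Likeness of pattern over the 23 arrays was described by Pearson r against 7121 other genes, and these arrays share groups and array processing. The gene most like ASNS was PSPH, the last enzyme of serine synthesis, with r = 0.87 over the arrays and 0.88 after each group mean was removed. Next were TMEM50B (0.77) and ALDH18A1, an enzyme of proline synthesis (0.76). In immobilised femur PSPH was 6.71, 6.55 and 7.59 beside ASNS at 9.36, 9.15 and 9.73, and in E15 control TBT it was 6.66, 6.63 and 7.37 beside ASNS at 9.35, 9.3 and 9.72. Both genes were thus high in the same arrays, immobilised femur replicate 3 and control TBT replicate 3.

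**Figure D4:**
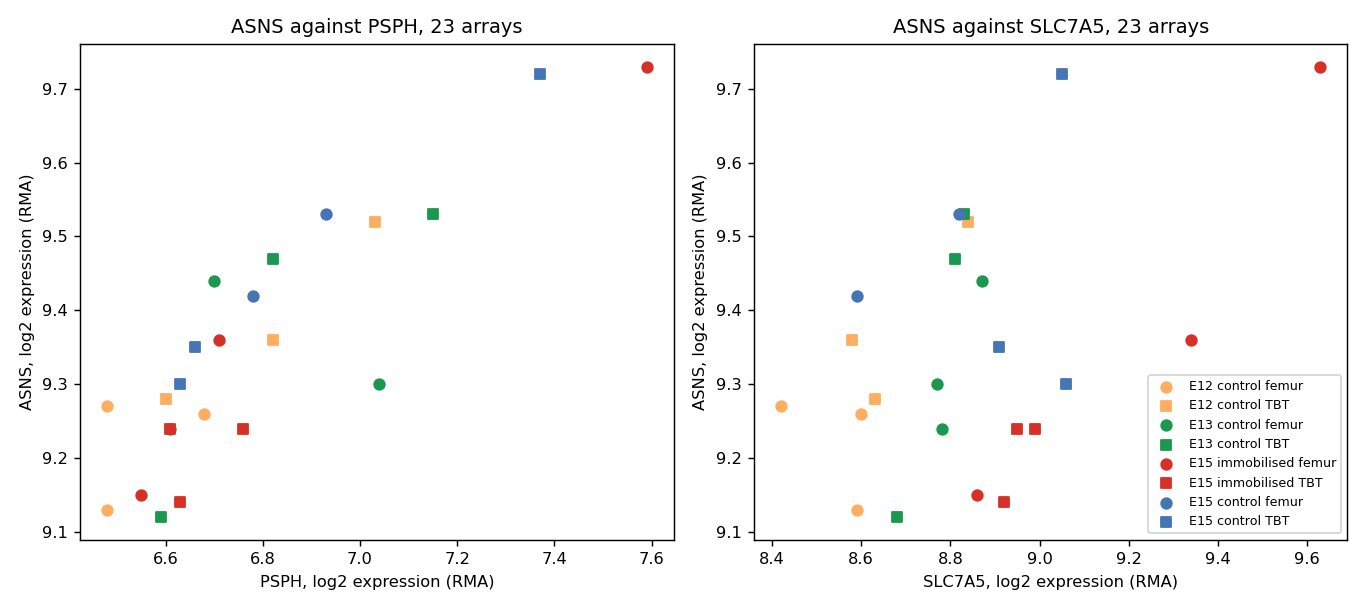
Log2 expression of ASNS (y axis) against PSPH (left x axis) and SLC7A5 (right x axis) in 23 arrays, coloured by group, with femur as circles and TBT as squares. Across arrays r was 0.87 for ASNS with PSPH and 0.47 with SLC7A5, and immobilised femur replicate 3 was highest for all 3 genes.

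The genes most like SLC7A5 were DMP1, a matrix protein of mineralising bone (r = 0.8), ADAMTS2, a procollagen protease (0.79), and FAM198A (0.78). DMP1 was 8.28, 6.66 and 8.43 in immobilised femur, against 7.13 and 8.05 in control femur, so replicate 2 was the lowest immobilised array for DMP1 as it was for SLC7A5. ADAMTS2 was called in the same comparison (0.48, adjusted p = 0.0213), and DMP1 was not (0.2, adjusted p = 0.861). These genes were chosen for likeness over arrays that include this comparison, so the ADAMTS2 call is not independent of that choice. After group means were removed, r with SLC7A5 was 0.81 for DMP1, 0.47 for ADAMTS2 and 0.43 for FAM198A. On ranks (Spearman), the values over the arrays were 0.75, 0.53 and 0.72 in turn. SLC38A2 was most like CTNNB1 (0.82), which encodes beta-catenin, DYNC1I2 (0.79) and KCNMA1 (0.72). Computed on ranks (Spearman), these values were 0.77, 0.62 and 0.41. E12 femur replicate 2, the lowest array for SLC38A2 at 11.19, was also the lowest for CTNNB1 at 11.48. SLC38A3 was most like COLGALT1, a collagen galactosyltransferase (0.74), LOXL3, a lysyl oxidase relative (0.72), and NGEF (0.7). With group means removed, r with SLC38A3 was 0.62, 0.63 and 0.2 in turn. ATF4 was most like TTC19 (0.79), EFNB1 (0.77) and ARL6IP4 (0.76).

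Among the 5 genes themselves, likeness was weaker. SLC7A5 and ASNS gave r = 0.47 over the arrays and 0.72 after group means were removed, SLC7A5 and ATF4 gave 0.44 and -0.04, and ASNS and ATF4 gave -0.2 and -0.31. SLC38A2 ran against SLC38A3 (-0.37 and -0.57) and against ATF4 (-0.45 and -0.55).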

How the data were processed

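The authors hybridised biotin-labelled cDNA from growth cartilage RNA to Affymetrix chicken arrays and deposited log2 expression values made by robust multi-array average (RMA). The records name affy and RMA, and the methods name aroma.affymetrix. Tool versions and a genome build: not given in the sources used here. Gene symbols came from the platform annotation: 12300 probe sets had 1 symbol, 256 had several and 8248 had none. Values were used as deposited. Probe sets with a standard deviation above 10 on the linear scale, a filter named in the methods, were tested with limma 3.58.1 in R 4.3.3 in one fit of 23 arrays and 8 group means (15 residual degrees of freedom), with Benjamini-Hochberg adjustment over 11004 probe sets and calls at an adjusted p under 0.05. SAM, rerun here with at most 100 permutations and fewer where the groups allowed fewer, was an alternative. Named genes were the 6 genes, list genes called in a comparison (at most 4 per list and comparison) and the 3 genes most like each member. The members, lists and tests were chosen with earlier results of these data known. Alternatives were another filter or none, array centring, quantile normalization, a trend with robust prior, blocks by array code (the last digits of the array name) and by replicate number, fits of only the groups compared, the mean of a gene's probe sets, and leaving out each array. In simulated data for immobilised minus control femur, 34% of 200 probe sets shifted by 0.5 log2 units and 73.5% of those shifted by 1 were recovered among 11004. For the difference between the femur and TBT effects these shares were 5.5% and 65.5%. The simulation left all other probe sets unshifted and drew independent noise. In the real comparison of immobilised with control femur 483 probe sets were called, so these shares may not hold for the real data. The number of arrays limits the precision.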

Additional observations from a re-analysis of the deposited data

How the results depend on the processing

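The count of the 5 genes called was 1 in immobilised minus control femur and fell to 0 with no filter, in a fit of only the groups compared, with the replicate block and by SAM, and it ranged between 0 and 1 over the arrays left out. For SLC7A5 there, the difference was 0.55 with the replicate block (adjusted p = 0.0552). Same-numbered arrays shared little, since only 3 of 77 same-numbered pairs had deviations from their group means that correlated over 0.1. Among these were replicates 2 and 3 of E12 with E13 control femur (0.21 and 0.19). The check looks only at equal numbers, so it cannot show whether femur and TBT pools came from the same embryos. The adjusted p was 0.0773 with no filter and 0.34 in the fit of only the groups compared. In E15 minus E12 and E13 TBT the count was 0. It was 1 in a fit of only the groups compared (SLC38A3, adjusted p = 0.022, among 669 of 11004 probe sets called). By SAM it was 2, where 14.3% of all probe sets were called. Without immobilised femur replicate 2 the counts for immobilised femur minus immobilised TBT, for immobilisation over both elements and for the difference of the effects, otherwise 0, were 1 (SLC7A5), so each ranged between 0 and 1.

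The array code block turned the direction of SLC7A5 in E15 minus E12 and E13 femur to -0.11, of ATF4 in immobilised minus control TBT to -0.048 and of SLC38A2 in E13 minus E12 to -0.0045. The mean over both ATF4 probe sets gave -0.08 in E13 minus E12 and -0.017 in immobilised minus control TBT. None of these differences was called. The array code block also ended the calls of PSAT1 in immobilised minus control TBT, of CHAC1 over both elements and of several stage calls in a single element. A fit of only the groups compared ended the calls of PHGDH (adjusted p = 0.128) and ALDH1L2 (adjusted p = 0.204) in immobilised minus control femur, of SLC7A2 and PSAT1 in TBT and of most stage calls in a single element. Leaving out arrays turned the direction of 20 uncalled differences, whose ranges follow. ASNS ranged between -0.17 and 0.032 for E13 femur minus TBT, -0.06 and 0.15 for E15 control femur minus TBT, -0.22 and 0.07 for immobilised minus control femur, and -0.055 and 0.16 for E15 minus E12 and E13 TBT. ATF4 ranged between -0.02 and 0.062 for E13 femur minus TBT, -0.018 and 0.061 for E13 minus E12, -0.16 and 0.027 for E15 control femur minus TBT, -0.058 and 0.067 for immobilised minus control TBT, and, for E15 minus E12 and E13, -0.14 and 0.053 in femur and -0.0092 and 0.086 over both elements. SLC38A2 ranged between -0.26 and 0.11 for E12 femur minus TBT, -0.073 and 0.11 for E13 minus E12, -0.1 and 0.093 for immobilised minus control femur, -0.12 and 0.0017 for immobilised femur minus TBT, and -0.085 and 0.13 for E15 minus E12 and E13 femur. SLC38A3 ranged between -0.21 and 0.3 for E13 femur minus TBT, -0.11 and 0.15 for E15 minus E12 and E13 femur, and -0.18 and 0.063 for the difference of the immobilisation effects. SLC7A5 ranged between -0.013 and 0.062 for E13 femur minus TBT and -0.082 and 0.15 for E15 minus E12 and E13 femur.

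Over all probe sets, calls in immobilised minus control femur numbered 483, but 319 with no filter, 21 in a fit of only the groups compared and 58 by SAM. In TBT they numbered 632, but 218 and 418 by the last pair of settings. Between immobilised femur and TBT they numbered 225, but 17 with the array code block and 118 in a fit of only the groups compared. From E12 and E13 to E15 they numbered 1346 in femur, but 231 in a fit of only the groups compared and 794 by SAM, and 1041 in TBT, but 669 and 1579. Between E15 control femur and TBT they numbered 23 and lay between 0 and 102 over the alternatives, with 102 without E15 control TBT replicate 2. For the difference of the immobilisation effects they numbered 20, but 9 with the array code block, 8 with no filter, 8 with the replicate block and 1 in a fit of only the groups compared. The causes were not tested.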
